A study of Mus musculus with 12 samples.

Results

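The AP-1 subunits are the basic leucine zipper proteins that pair up to form the transcription factor AP-1. They were taken here as the Fos family (Fos, Fosb, Fosl1 and Fosl2), the Jun family (Jun, Junb and Jund) and Atf3. Their probe sets were found by annotated gene symbol in the deposited table of Affymetrix MG-430 PM arrays, which gave 8 genes of 17097 and 12 probe sets of 45141. All 8 genes passed the filter on low values and were among the 13853 genes tested.

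The tissue was mouse hippocampus ipsilateral to an amygdala injection, with 12 arrays in 4 groups of 3. KA mice received 0.3 µg of kainic acid, an agonist of kainate-type glutamate receptors that sets off status epilepticus, in 0.2 µl, and 6 mg/kg of lorazepam, a benzodiazepine, was given 40 min later. Their hippocampi were taken at 8 h (KA 8 h) or at 14 d (KA 14 d). Control mice had 0.2 µl of vehicle in the amygdala and were sampled at the same nominal times (CTR 8 h and CTR 14 d). The labels do not say whether controls were given lorazepam, and they name neither sex nor strain. They also do not say that each array is an animal of its own, so the p-values below measure the spread between these samples, which may be technical. The times are those of the array titles. The separate time entry of the arrays titled 8 h reads 11, 12 and 13 h for KA and 8, 9 and 10 h for the controls, so hours since injection and KA cannot be told apart there if that entry is taken literally.

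In neurons the Fos and Jun genes are immediate early genes. Calcium entry and MAP kinase signalling act on factors already bound at their promoters, such as CREB, SRF and the Elk proteins, and their mRNAs appear within minutes and decay quickly. Fos proteins cannot pair with each other and need a Jun partner, whereas Jun proteins also pair among themselves. Fosb stands out in the brain because a truncated splice product, ΔFosB, is stable and builds up after repeated activity. Atf3 is a stress-response gene of the ATF/CREB family that pairs with Jun proteins.

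The proximal promoters of the members with a match to a searched motif are shown. All 8 members rose at 8 h, also Fosl2 and Jund, which had no match and are not shown. A link between the motifs and the changes was not tested. They come from RefSeq (GRCm38.p6), whose promoter table matched 7 of the 8 members. Each line gives the 150 bases before the start used in that table, 5′ to 3′ on the gene's strand, with motif matches in capitals.
Fos, chr12:85473740-85473889, plus strand: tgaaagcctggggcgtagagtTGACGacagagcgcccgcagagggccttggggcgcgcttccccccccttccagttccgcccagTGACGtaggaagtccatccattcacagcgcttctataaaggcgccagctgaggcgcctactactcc
Fosb, chr7:19310046-19310195, minus strand: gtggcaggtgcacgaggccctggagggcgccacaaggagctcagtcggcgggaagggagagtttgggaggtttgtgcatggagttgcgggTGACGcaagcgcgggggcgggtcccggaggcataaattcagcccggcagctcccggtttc
Jun, chr4:95052223-95052372, minus strand: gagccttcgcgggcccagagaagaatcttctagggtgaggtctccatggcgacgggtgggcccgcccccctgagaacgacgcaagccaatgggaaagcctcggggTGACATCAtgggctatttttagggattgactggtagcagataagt
Junb, chr8:84978749-84978898, minus strand: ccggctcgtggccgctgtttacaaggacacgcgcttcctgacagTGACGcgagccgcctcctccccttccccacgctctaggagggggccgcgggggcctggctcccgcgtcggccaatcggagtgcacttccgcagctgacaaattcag
Atf3, chr1:191183334-191183483, minus strand: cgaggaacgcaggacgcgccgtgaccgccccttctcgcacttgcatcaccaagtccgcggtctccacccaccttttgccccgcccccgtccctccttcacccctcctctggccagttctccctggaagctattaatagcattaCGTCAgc

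Elements bound by CREB, AP-1 and SRF were searched on both strands, over 250 bases before to 50 bases after each start, with letters chosen after the sequences were seen. TGACG, the core of the CREB element, was in 4 of the 7 member promoters, against 20.8% of 32851 promoters in the table. Fos held it at positions -129 and -66 from the start, Fosb at -60, Junb at -106, and Atf3 on the opposite strand at -7. TGACNTCA, which contains TGACG when N is G, was in 1 of 7, the Jun promoter at -45, where it reads TGACATCA, against 8.83% of all promoters. TGANTCA, the AP-1 element itself, was in 0 of 7 and in 7.81% of all promoters, and the CArG box, the SRF element, was in 0 of 7 and in 1.63%. The Fosl2 and Jund windows held none of them. For Fosb, the start in the promoter table lies inside the annotated gene, which ends at 19310118 on chromosome 7. A match is a run of letters in this window and not a measured binding site. Elements farther from the start were not searched, so a count of 0 covers this window only.

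The genes lie on several chromosomes in GRCm38.p6. Fos is at chr12:85473890-85477274, Fosb at chr7:19302696-19310118, Fosl1 at chr19:5447698-5455938 and Fosl2 at chr5:32136472-32157840. Jun is at chr4:95049036-95052222, Junb at chr8:84976909-84978748, Jund at chr8:70697739-70700616 and Atf3 at chr1:191170296-191183333. The files do not give probe positions, so which exon or UTR a probe set reads was not determined.

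The values are log2 intensities as deposited, and a level is read within a probe set only. Array medians lay between 4.90 and 4.95. The background of an array was taken as the mean of its 8 GC-rich nonspecific probe sets, which lay between 4.10 and 4.68. Arrays of 1 group correlated at 0.989 to 0.997 over the probe sets. All 8 markers of pyramidal and granule neurons of the hippocampus were above background in every group. None of 5 choroid plexus markers lay at or below background throughout a group. Of 5 thalamus markers only Lef1 did, in KA 8 h and KA 14 d. Presence above background therefore does not settle which region was sampled. Xist, the RNA of the inactive X chromosome, read 7.39 to 8.71 on the KA 8 h arrays, against 4.34 to 4.61 on the CTR 8 h arrays. It stayed at 4.19 to 4.67 in KA 14 d and 4.29 to 4.55 in CTR 14 d. The Y-linked gene Eif2s3y read 5.57 to 6.83 in KA 8 h, against 7.46 to 7.96 in CTR 8 h. The labels give no sex, and KA at 8 h and a difference in the sex of the animals cannot be told apart. In bulk tissue, fewer cells of a type and less RNA per cell cannot be told apart, and this holds for every level below.

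All 8 subunit genes rose at 8 h after KA. Fos, Fosb and Atf3 rose most, by 5.49, 5.10 and 3.83 on the log2 scale, followed by Fosl2, Junb and Jun, and Jund and Fosl1 rose by less than 1. A gene was called at a Benjamini-Hochberg adjusted p under 0.05 in limma over all genes tested, and 7.92% of the genes rose by that rule while 9.55% fell, which is 17.5% in all. No member's groups overlapped, whereas 14.8% of genes were higher without overlap. The median change of the members was 2.16, against -0.02 over all genes tested.

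**Figure D1:**
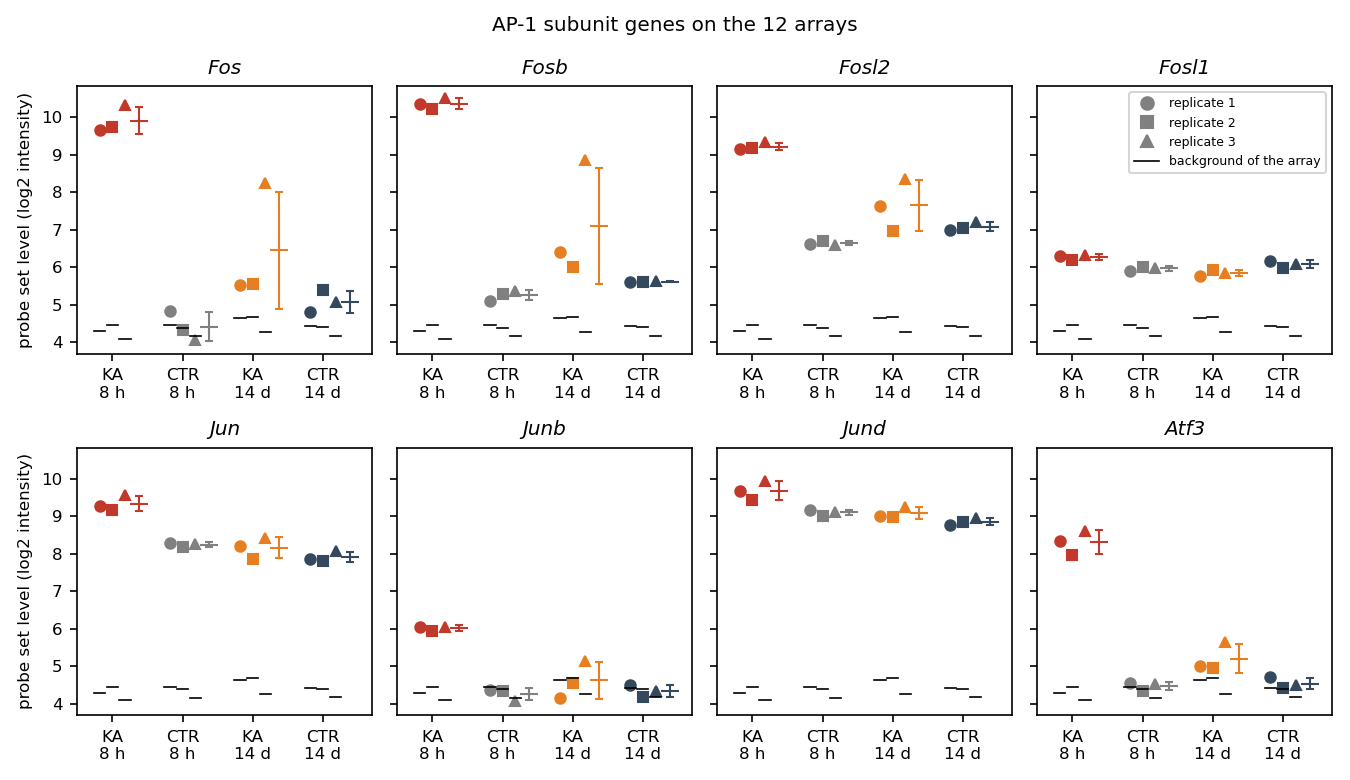
Log2 intensity of the 8 AP-1 subunit genes on each of the 12 arrays, by group, with the group mean and SD beside the points (n = 3) and the background of each array as a short line. All KA 8 h points lie above the CTR 8 h points of the same gene, and replicate 3 of KA 14 d stands above the other KA 14 d arrays for Fos and Fosb, at 8.26 and 8.87.

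Fos, the prototype of the family and a common marker of recently active neurons, read 9.65, 9.74 and 10.32 on the KA 8 h arrays, against 4.83, 4.34 and 4.07 on the CTR 8 h arrays. Its change was 5.49 ± 0.50 (SE, limma adjusted p = 1.89e-06). Only 1 of the 3 control arrays was above its background. With the background mean in place of the other control values, the rise was at least 43.4-fold. By the log2 change of the fit, it was the largest rise of the 13853 genes. Here and wherever a fold is given as "at least", the log2 change, SE, p-value and rank come from the deposited values, without that replacement. Fosb, which encodes FosB and ΔFosB, read 10.35, 10.22 and 10.51 in KA 8 h, against 5.10, 5.30 and 5.37 in CTR 8 h. This is 34.3-fold, a log2 change of 5.10 ± 0.47 (limma adjusted p = 1.95e-06), and ranks second of all genes. The array's single Fosb probe set does not tell FosB and ΔFosB mRNA apart in the annotation used.

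Fosl2 (FRA-2), a later-appearing member of the family, read 9.16, 9.18 and 9.34 in KA 8 h, against 6.64, 6.71 and 6.59 in CTR 8 h. It rose 5.97-fold (log2 change 2.58 ± 0.22, limma adjusted p = 9.85e-07). The arrays of each group lay close together, with an SD of 0.10 in KA 8 h and 0.06 in CTR 8 h. Fosl1 (FRA-1) read 6.31, 6.20 and 6.34 in KA 8 h, against 5.91, 6.02 and 5.99 in CTR 8 h. The groups did not overlap, and the rise of 1.24-fold was the smallest of the members (0.31 ± 0.08, limma adjusted p = 0.0174). It lost its call when certain single arrays were left out. The limma adjusted p of Fosl1 was 0.0594 without KA 8 h replicate 1, 0.0611 without KA 8 h replicate 3 and 0.0708 without CTR 8 h replicate 1.

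Jun, the main partner of Fos proteins, read 9.29, 9.16 and 9.57 in KA 8 h, against 8.30, 8.18 and 8.27 in CTR 8 h. It rose 2.14-fold (1.09 ± 0.13, limma adjusted p = 2.84e-05). Junb, a weaker activator that can oppose Jun, read 6.06, 5.94 and 6.06 in KA 8 h, against 4.37, 4.35 and 4.09 in CTR 8 h. None of the 3 control arrays was above its background for Junb, so its rise was at least 3.20-fold (1.75 ± 0.17, limma adjusted p = 4.11e-06). Jund, the member known for high steady levels in unstimulated cells, read 9.68, 9.43 and 9.95 in KA 8 h, against 9.16, 9.02 and 9.13 in CTR 8 h. Its rise was 1.49-fold (0.58 ± 0.12, limma adjusted p = 0.00284).

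Atf3 read 8.35, 7.98 and 8.62 in KA 8 h, against 4.57, 4.36 and 4.53 in CTR 8 h. It rose at least 14.1-fold (3.83 ± 0.17, limma adjusted p = 1.23e-09). Atf3 was above background on 2 of the 3 CTR 8 h arrays. It ranked sixth of all genes by size of rise and had the smallest adjusted p of the 8 members.

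**Figure D2:**
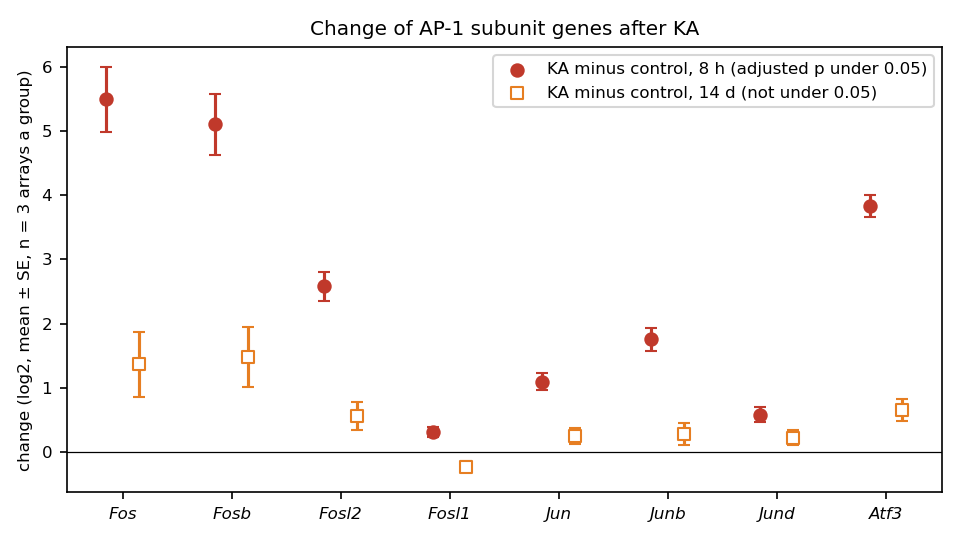
Log2 change of each AP-1 subunit gene, KA minus control, at 8 h (filled circles, adjusted p under 0.05) and at 14 d (open squares, not under 0.05), as mean ± SE with n = 3 arrays a group. Changes at 8 h run between 0.31 for Fosl1 and 5.49 for Fos, and at 14 d between -0.23 for Fosl1 and 1.48 for Fosb.

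Fosl1, Fosl2, Jun and Jund each have a pair of probe sets, and the fit used the brighter one. In a fit of all 45037 probe sets, where 10.8% changed at 8 h, the dimmer Fosl2 probe set rose by 2.13 ± 0.19 (limma adjusted p = 8.55e-06). The dimmer Jun probe set read 7.71, 7.61 and 7.94 in KA 8 h, against 5.73, 5.62 and 5.76 in CTR 8 h. Its rise of 2.05 ± 0.11 (limma adjusted p = 1.77e-07) stood beside 1.09 for the brighter one, and the difference between the probe sets was not tested. The dimmer Fosl1 probe set lay at or below background on all 12 arrays and is not read further.

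Jund was the member whose probe sets differed in call. The dimmer one read 6.59, 6.52 and 6.30 in KA 8 h, against 6.52, 6.66 and 6.52 in CTR 8 h, well above background. Its change was -0.09 ± 0.10 (limma adjusted p = 0.679), and the groups overlapped. With the mean of both probe sets, the Jund change at 8 h was 0.24, and Jund was still called. Junos, a transcript annotated beside Jun, read 3.37 to 3.56 on all arrays, below background, and was not tested.

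**Figure D3:**
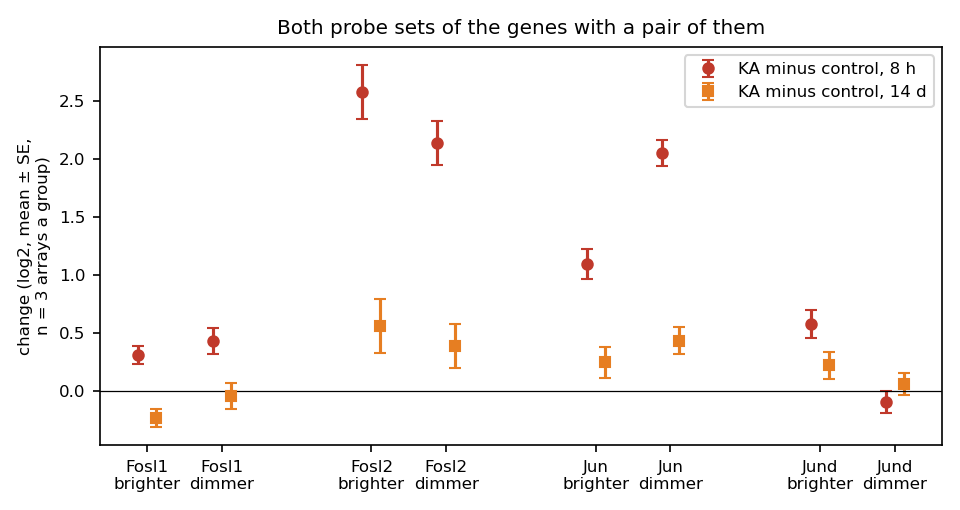
Log2 change, KA minus control, of both probe sets of Fosl1, Fosl2, Jun and Jund at 8 h (circles) and 14 d (squares), as mean ± SE with n = 3 arrays a group. The dimmer Jun probe set lies at 2.05 at 8 h, above the brighter one at 1.09, and the dimmer Jund probe set lies at -0.09, below the brighter one at 0.58.

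At 14 d none of the 8 subunits was called, against 2.56% of all genes (1.99% rose and 0.57% fell). Of the 8, 5 had an unadjusted limma p under 0.05. The share of all genes under that unadjusted threshold was not counted, so the 5 are not read as a result. The means were higher in KA 14 d for 7 members and lower for Fosl1. The median change was 0.42, against -0.01 over all genes. Fos, Fosb, Jund and Atf3 were higher without overlap between the groups, as were 8.02% of genes, and Fosl1 was lower without overlap, as were 8.5% of genes. Fosl2, Jun and Junb overlapped.

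Fos read 5.54, 5.56 and 8.26 on the KA 14 d arrays, against 4.81, 5.39 and 5.08 on the CTR 14 d arrays, a change of 1.36 ± 0.50 (limma adjusted p = 0.223). Fosb read 6.42, 6.00 and 8.87 in KA 14 d, against 5.62, 5.60 and 5.64 in CTR 14 d, a change of 1.48 ± 0.47 (limma adjusted p = 0.136). Fosl2 read 7.63, 6.98 and 8.35 in KA 14 d, against 7.00, 7.05 and 7.22 in CTR 14 d, a change of 0.56 ± 0.22 (limma adjusted p = 0.263). In each of these genes replicate 3 of KA 14 d was the highest array, and for Fos and Fosb the other 2 arrays stood much nearer to the controls than to it. Fosl1 read 5.77, 5.95 and 5.85 in KA 14 d, against 6.18, 5.97 and 6.10 in CTR 14 d, a change of -0.23 ± 0.08 (limma adjusted p = 0.216). It was the member with the lower mean in KA 14 d.

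Jun read 8.22, 7.88 and 8.42 in KA 14 d, against 7.87, 7.82 and 8.08 in CTR 14 d, a change of 0.25 ± 0.13. Junb read 4.17, 4.57 and 5.14 in KA 14 d, against 4.50, 4.18 and 4.36 in CTR 14 d, a change of 0.28 ± 0.17. Jund read 9.02, 8.98 and 9.26 in KA 14 d, against 8.77, 8.85 and 8.96 in CTR 14 d, a change of 0.23 ± 0.12. Their limma adjusted p-values lay between 0.471 and 0.574. Junb was above background on 1 KA 14 d array and 2 CTR 14 d arrays, so its change at 14 d is a difference near the floor of the array. The dimmer Jun probe set read 6.05, 5.99 and 6.44 in KA 14 d, against 5.79, 5.67 and 5.71 in CTR 14 d, without overlap (0.44 ± 0.11, limma adjusted p = 0.107, where 1.18% of all probe sets changed).

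Atf3 had the smallest adjusted p of the members at 14 d. It read 5.01, 4.95 and 5.65 in KA 14 d, against 4.71, 4.42 and 4.51 in CTR 14 d, a change of 0.66 ± 0.17 (limma adjusted p = 0.0613).

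Calls at 14 d changed with single arrays. Without KA 14 d replicate 3, the Fos change was 0.46 and the Fosb change was 0.59, and Fosb passed (limma adjusted p = 0.0164). The change without it was also smaller for Fosl2 (0.21), Jun (0.13), Jund (0.14) and Junb (0.03), and for Atf3 it was 0.43. Without KA 14 d replicate 2, Fosb (2.03, limma adjusted p = 0.0178), Fosl2 (0.90, 0.00399) and Atf3 (0.78, 0.0324) passed. Atf3 also passed without KA 8 h replicate 2 (0.0393) or KA 8 h replicate 3 (0.0360), arrays that enter its 14 d test only through the shared estimate of spread.

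KA 14 d replicate 3 stood apart from the other KA 14 d arrays in most of the members. It lay above the mean of replicates 1 and 2 by 2.71 for Fos and by 2.66 for Fosb. These were the largest and second largest such gaps of all 13853 genes, with 99.993% and 99.986% of genes below them. The gap was computed for this array only, on which Fos and Fosb stood highest, so its ranks and shares are descriptions. The gap was 1.05 for Fosl2, 0.76 for Junb and 0.68 for Atf3, and it was 0.37 for Jun, 0.26 for Jund and -0.01 for Fosl1. In all, 20 genes, or 0.144%, had a gap above 1, and 3 of them were AP-1 subunits. A gap above 0.5 was seen in 5 of the 8 members and in 2.59% of genes.

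Set against the mean of the CTR 14 d arrays, replicates 1 and 2 of KA 14 d were higher by 0.45 and 0.47 for Fos and by 0.81 and 0.38 for Fosb, and replicate 3 was higher by 3.17 and 3.26. That array reached 57.8% of the mean 8 h change of Fos on the log2 scale, 63.8% of that of Fosb and 28.9% of that of Atf3. Its background was 4.27, against 4.65 and 4.68 on the other KA 14 d arrays. Replicate 3 was also the highest array for 7 of 8 members in KA 8 h, 1 of 8 in CTR 8 h and 4 of 8 in CTR 14 d. Among all genes it was the highest array for 37.0%, 43.2% and 41.0% in those groups, and for 41.8% in KA 14 d, where 7 of 8 members had it highest. In each of the 4 groups replicate 3 had the lowest background, 4.10 in KA 8 h, 4.16 in CTR 8 h and 4.18 in CTR 14 d. The deviations of the third arrays from their group means correlated with each other at 0.401 to 0.526 over all genes tested. The part of what the third arrays share in these levels was not tested.

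**Figure D4:**
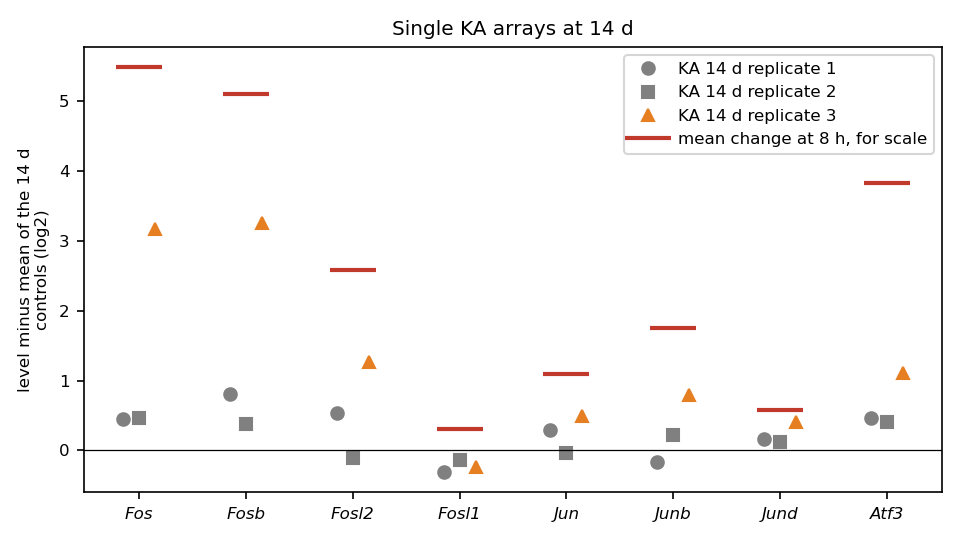
Level of each AP-1 subunit gene on the single KA 14 d arrays minus the mean of the 3 CTR 14 d arrays (log2), with the mean change at 8 h as a red line for scale. Replicate 3 lies at 3.17 for Fos and 3.26 for Fosb, and replicates 1 and 2 lie between 0.38 and 0.81 for these genes.

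The change at 14 d was smaller than the change at 8 h for 7 of the 8 subunits by the test of the difference itself, where 5.52% of genes were called, 3.06% with the smaller and 2.45% with the larger value at 14 d. Atf3 (-3.17 ± 0.25, limma adjusted p = 1.85e-06), Fos (-4.13 ± 0.71, 0.00239) and Fosb (-3.62 ± 0.66, 0.00372) had the largest differences. Fosl2 differed by -2.01 ± 0.31 (limma adjusted p = 0.000993) and Junb by -1.47 ± 0.25 (0.00181). Jun differed by -0.85 ± 0.18 (0.0121) and Fosl1 by -0.54 ± 0.12 (0.0126). The Fosl1 difference combines a rise at 8 h with a lower mean at 14 d. Without the third array of each group the Fosl1 difference was not called (-0.51, limma adjusted p = 0.0861). Jund, at -0.35 ± 0.17 (limma adjusted p = 0.281), was not called. In the fit of all probe sets, the dimmer Jun probe set differed by -1.62 ± 0.16 (limma adjusted p = 9.72e-05). The dimmer Fosl2 probe set differed by -1.75 ± 0.27 (0.00263) and the dimmer Jund probe set by 0.16 ± 0.13 (0.741). The members' median difference was -1.74, against 0.02 over all genes.

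Between the control groups, CTR 14 d minus CTR 8 h, none of the 8 members was called, against 1.8% of genes (1.12% higher and 0.679% lower). The share of all genes with an unadjusted limma p under 0.05 was not counted here either, and 1 member was under it. That gene was Jun, which was lower at 14 d (-0.32 ± 0.13, limma adjusted p = 0.249) without overlap, as were 9.76% of genes. Jund was also lower without overlap (-0.25, 0.347). Fosl2 (0.44 ± 0.22, limma adjusted p = 0.373) and Fosb (0.36 ± 0.47) were higher without overlap, as were 15.3% of genes. At the dimmer probe sets of Jun (0.02), Jund (-0.02) and Fosl2 (0.16) the control groups overlapped. Fos differed by 0.67 ± 0.50 (limma adjusted p = 0.610) and its groups overlapped. Fosl1, Junb and Atf3 differed by 0.11, 0.08 and 0.06 and overlapped.

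The order of mean levels is given at the probe set used in the fit. KA 8 h came first for all 8 genes and was apart from the next group in each. For Fos, Fosb, Fosl2, Junb and Atf3 the order then ran KA 14 d, CTR 14 d and CTR 8 h. CTR 14 d overlapped CTR 8 h for Fos, Junb and Atf3, and KA 14 d overlapped CTR 14 d for Fosl2 and Junb. For Jun and Jund the order after KA 8 h was CTR 8 h, KA 14 d and CTR 14 d, and CTR 8 h overlapped KA 14 d in both. For Fosl1 it was CTR 14 d, CTR 8 h and KA 14 d, with each neighbouring pair overlapping. The dimmer Jun probe set ran in another order, with means of 7.75 in KA 8 h, 6.16 in KA 14 d, 5.72 in CTR 14 d and 5.70 in CTR 8 h. The dimmer Jund probe set had its lowest mean in KA 8 h (6.47) and its highest in KA 14 d (6.61).

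Over the 12 arrays, at the probe sets used in the fit, Fos and Fosb followed each other closely (Pearson r = 0.991), as did Jun and Jund (0.971). Correlations at the dimmer probe sets were not computed, and the dimmer Jund probe set was lowest in KA 8 h, where the dimmer Jun probe set was highest. Fosl1 followed the other members least, at r between 0.579 and 0.719. These correlations are descriptions over arrays that share 4 groups, and the 3 KA 8 h arrays set much of them.

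The 5 genes whose levels were most like those of Fos over the 12 arrays, members and predicted genes left out, were Inhba, Pcdh8, Spry2, Ptgs2 and Bdnf, with r between 0.975 and 0.978. They were picked on the same arrays by likeness to the gene that rose most at 8 h. Their rises at 8 h therefore follow largely from the choice, and their p-values are descriptions. Inhba, the activin A subunit gene, read 9.41, 9.29 and 9.54 in KA 8 h, against 4.55, 4.48 and 4.52 in CTR 8 h (4.89 ± 0.25, limma adjusted p = 4.03e-09). At 14 d it read 6.32, 5.43 and 6.98 in KA, against 4.72, 4.97 and 4.77 in controls (1.43, limma adjusted p = 0.00390). A dimmer Inhba probe set changed by -0.18 at 8 h (limma adjusted p = 0.403). Bdnf, the neurotrophin gene, changed by 2.88 ± 0.21 at 8 h (limma adjusted p = 2.28e-07) and by 1.17 at 14 d (0.00612).

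Pcdh8, a protocadherin gene induced by neuronal activity, rose at least 7.33-fold at 8 h (limma adjusted p = 4.15e-07) and changed by 1.03 at 14 d (0.0297). It was above background on 1 of 3 control arrays at each time and on 2 of 3 KA 14 d arrays, so its 14 d change lies near the floor. Spry2, an inhibitor of receptor tyrosine kinase signalling, changed by 1.73 ± 0.15 at 8 h (limma adjusted p = 1.21e-06) and by 0.42 at 14 d (0.214). It was not called at 14 d. The genes most like Fosb were Rnf217, a RING finger gene (r = 0.988, 1.43 ± 0.16 at 8 h, limma adjusted p = 1.19e-05), Pcdh8 (0.987) and Inhba (0.984). As for Fos, the choice largely sets their rises at 8 h.

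**Figure D5:**
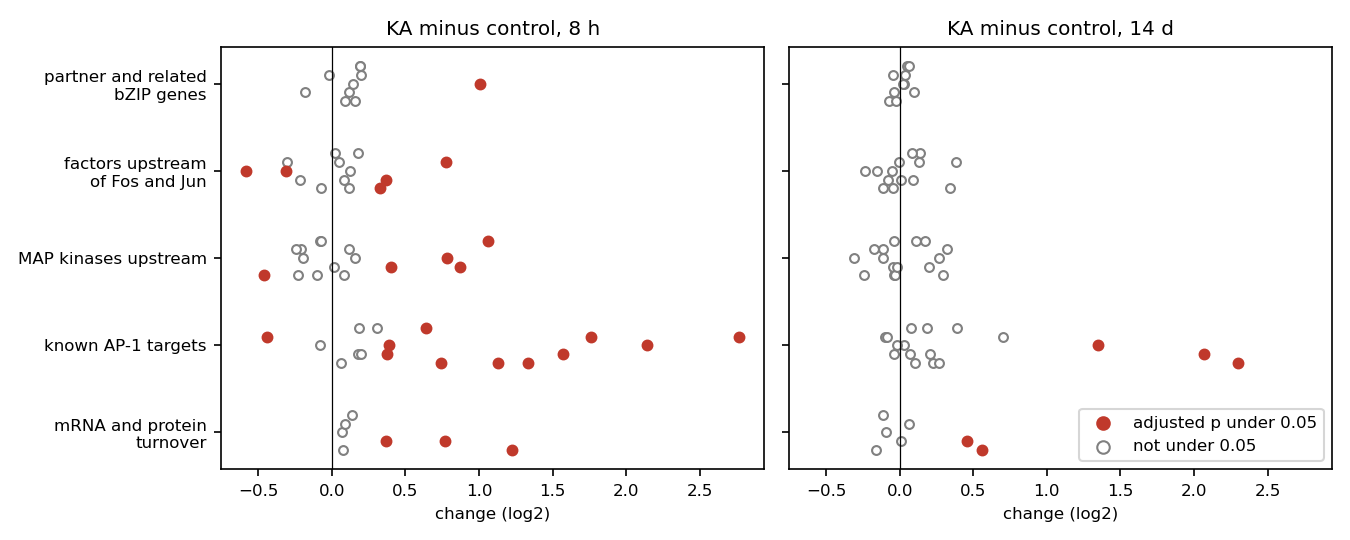
Log2 change, KA minus control, of the tested genes of 5 lists related to AP-1 at 8 h (left) and 14 d (right), with each point a gene and filled points at an adjusted p under 0.05. Among known AP-1 targets 10 genes are filled above 0 at 8 h and 3 at 14 d, and among partner and related bZIP genes 1 is filled at 8 h and 0 at 14 d. Of all genes tested, 7.92% rose at 8 h and 1.99% at 14 d. The lists were chosen with earlier results of these data known.

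Genes around AP-1 were read from 5 lists, which were chosen with earlier results of these data known. The shares called in a list are therefore descriptions. Of the partner and related leucine zipper genes, 10 were tested and 1 rose at 8 h, a share near the 7.92% of all genes. That was Maff, a small Maf protein that pairs with Fos, with 5.15, 5.15 and 5.61 in KA 8 h, against 4.39, 4.29 and 4.22 in CTR 8 h (limma adjusted p = 1.11e-05). Maff was above background on 1 of the 3 CTR 8 h arrays, so its rise was at least 1.93-fold. The list's median was 0.15, against -0.02 over all genes. None was called at 14 d, when Maff was not above background on any of the 3 KA 14 d arrays.

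Of 14 tested transcription factors and coactivators that act upstream of Fos and Jun, 3 rose and 2 fell at 8 h. Over all genes 7.92% rose and 9.55% fell, and the median of the list was 0.07. Stat3, the factor of cytokine signalling, rose by 0.78 ± 0.10 (limma adjusted p = 6.37e-05), Elk4, a ternary complex factor, by 0.37 ± 0.10 (0.0139) and Creb1 by 0.33 ± 0.11 (0.0426). Mef2a, an activity-dependent factor, fell by 0.58 ± 0.12 (limma adjusted p = 0.00282). Crtc1, a CREB coactivator named after its values were seen, fell by 0.31 ± 0.10 (0.0493). Srf itself changed by 0.12 ± 0.15 (limma adjusted p = 0.675). None of the 14 was called at 14 d, against 2.56% of all genes. Creb1 was the list's one call between the controls, higher in CTR 14 d than in CTR 8 h by 0.52 ± 0.11 (limma adjusted p = 0.0190).

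Of 16 tested MAP kinase pathway genes, 4 rose and 1 fell at 8 h, against 7.92% and 9.55% of all genes. Their median was -0.03. Rps6ka3, which encodes the ERK-activated kinase RSK2, rose by 1.06 ± 0.09 (limma adjusted p = 8.14e-07), and Map2k3, a kinase that activates p38, by 0.78 ± 0.09 (1.76e-05). Map3k5, the stress kinase ASK1, rose by 0.87 ± 0.13 (limma adjusted p = 0.000325) and Mapk7, which encodes ERK5, by 0.41 ± 0.11 (0.0155). Rps6ka5, which encodes MSK1 and was named after its values were seen, fell by 0.46 ± 0.13 (limma adjusted p = 0.0217), with mean levels of 4.01 in KA 8 h and 4.46 in CTR 8 h that lie around background. None was called at 14 d, against 2.56% of all genes. Rps6ka3, Map2k3 and Map3k5 had smaller changes at 14 d than at 8 h by the test of the difference, as did 3.06% of genes.

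Of 17 tested genes known as AP-1 targets in various cell types, 10 rose and 1 fell at 8 h. Over all genes 7.92% rose and 9.55% fell, and the median of the list was 0.39. Cd44, the hyaluronan receptor, read 6.93, 6.81 and 7.09 in KA 8 h, against 4.95, 4.56 and 4.91 in CTR 8 h (2.14 ± 0.12, limma adjusted p = 1.77e-08). Vim, an intermediate filament gene, rose by 1.57 ± 0.16 (limma adjusted p = 7.48e-06) and Nts, which encodes neurotensin, at least 3.18-fold (1.02e-05), with 2 of the 3 CTR 8 h arrays above background. Ptgs2, which encodes cyclooxygenase 2, read 6.48, 6.22 and 6.95 in KA 8 h, against 3.81, 3.68 and 3.86 in CTR 8 h (limma adjusted p = 1.50e-05). None of the control arrays was above its background, so the rise was at least 4.63-fold.

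At 14 d 3 of the 17 targets rose and none fell, against 1.99% and 0.57% of all genes. Penk, the proenkephalin gene, read 9.22, 8.26 and 9.53 in KA 14 d, against 6.50, 6.75 and 6.87 in CTR 14 d (2.30 ± 0.23, limma adjusted p = 1.81e-05). Its change at 8 h was 1.13 ± 0.23 (limma adjusted p = 0.00275), and it was larger at 14 d by the test of the difference (1.17 ± 0.32, 0.0473), opposite in sign to the 7 subunits called there. Vim changed by 2.07 ± 0.16 (limma adjusted p = 1.25e-06) and Cd44 by 1.35 ± 0.12 (7.12e-06) at 14 d. Over the list, 1 gene had a larger and 5 had a smaller change at 14 d than at 8 h, against 2.45% and 3.06% of genes. Of the 5, Nts was above background on 0 of 3 and Ptgs2 on 1 of 3 KA 14 d arrays.

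Cell type markers moved beside these genes. The summed level of 5 astrocyte markers was 12.9 to 13.2 in KA 14 d, against 12.4 to 12.5 in CTR 14 d, and 3 of 5 rose, Gfap by 1.75 ± 0.13 (limma adjusted p = 4.35e-07). At 8 h it was 12.5 to 12.7 in KA, against 12.3 in controls, and 1 of 5 rose. The 5 microglial markers summed to 10.2 to 10.3 in KA 14 d, against 9.41 to 9.51 in CTR 14 d, where 4 rose. At 8 h they summed to 8.44 to 8.67 in KA, against 8.85 to 9.11 in controls, where 3 fell. The control groups also differed, with Cx3cr1 (0.93 ± 0.12, limma adjusted p = 0.00138) and P2ry12 (0.58 ± 0.13, 0.0291) higher in CTR 14 d than in CTR 8 h. Dsp, a hippocampal neuron marker, was lower there (-0.99 ± 0.17, limma adjusted p = 0.00718). Of all genes, 1.12% were higher and 0.679% lower between the controls. The 8 hippocampal neuron markers summed to 11.3 to 11.5 in KA 8 h, against 11.5 to 11.7 in CTR 8 h, where 3 fell, and 2 fell at 14 d. At 8 h 2 of 5 endothelial markers rose and 2 of 4 oligodendrocyte markers fell. Of 5 interneuron markers, Sst rose by 0.72 and Pvalb fell by 0.55 at 8 h, and Pvalb fell by 0.71 at 14 d. Of 5 pan-neuronal markers, Rbfox3 fell by 0.37 at 8 h and Syt1 by 0.34 at 14 d. Over all genes, 7.92% rose and 9.55% fell at 8 h, and 1.99% rose and 0.57% fell at 14 d. None of 5 choroid plexus markers was called, though their summed level ranged between 9.80 and 12.3 in KA 8 h, against 12.0 and 12.3 in CTR 8 h. No defining marker of these lists lay at or below background in any group. The part of these shifts in the changes of the AP-1 subunits and their targets was not tested.

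Of 7 tested genes that act on the decay of AP-1 mRNA or protein, 3 rose at 8 h and none fell. Over all genes 7.92% rose and 9.55% fell, and the median of the list was 0.14. Zfp36l1 and Zfp36l2 encode proteins that bind AU-rich elements and promote mRNA decay. Zfp36l1 rose by 1.23 ± 0.12 (limma adjusted p = 3.21e-06) and Zfp36l2 by 0.77 ± 0.12 (0.000258). Fbxw7, a ubiquitin ligase subunit that recognises Jun, rose by 0.37 ± 0.11 (limma adjusted p = 0.0282). At 14 d Zfp36l1 (0.56 ± 0.12, limma adjusted p = 0.0169) and Zfp36l2 (0.46 ± 0.12, 0.0493) rose, as did 1.99% of all genes. The Zfp36l1 change was smaller at 14 d than at 8 h (-0.67 ± 0.17, limma adjusted p = 0.0276).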

How the data were processed

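The values are log2 intensities on which the authors used RMA and affy, per the submitters' processing notes, which give no version. The scale is not written in the deposited table and was read from its values. Of 45141 probe sets, 104 are array controls, 28898 carry 1 symbol, 551 carry several and 15588 were not named by the annotation used. The probe set with the highest mean was used per gene. Genes above the 30th percentile of the array on at least 3 arrays were kept, which left 13853. A single limma model (version 3.58.1, R 4.3.3, with eBayes) estimated the 4 group means from all 12 arrays, which left 8 residual degrees of freedom. Tests were two-sided, with Benjamini-Hochberg adjustment over all genes tested and a threshold of 0.05. The number of arrays limits the precision. The fit was tested on simulated data. No arrays were identical.

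Array values of the dimmer group that did not exceed their background were replaced by it, and the fold is then given as "at least". The log2 changes, SEs, p-values and ranks were not adjusted in this way. The replacement rule and the members, gene lists and tests were chosen with earlier results of these data known. Named were all 8 members, the 5 genes most correlated with Fos and the 3 most correlated with Fosb, and from each list all members called at 14 d and up to 4 called at 8 h by adjusted p. Genes named beyond this were chosen after their values were seen. A summed marker level is log2 of the sum of linear intensities.

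Groups share replicate numbers, which the labels do not explain. At 8 h the deviations of same-numbered arrays from their group means correlated at 0.155, 0.138 and 0.413, all above the bound of 0.1, so a pairing there comes from the data alone. Differently numbered arrays reached like values (0.163 for KA replicate 2 with control replicate 1 and 0.138 for KA replicate 1 with control replicate 2). Alternatives covered the filter, probe set choice, scaling, arrays in the fit, array weights, trend, threshold, replicate block, X and Y genes and each array left out. The word Input in the titles is not explained in the labels.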

Additional observations from a re-analysis of the deposited data

Results flagged for a closer look

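For 7 of the 8 subunits the change after KA differed between 14 d and 8 h by limma's test of the difference, given here as the change at 14 d minus the change at 8 h on the log2 scale. The values were -4.13 for Fos, -3.62 for Fosb, -3.17 for Atf3, -2.01 for Fosl2, -1.47 for Junb, -0.85 for Jun and -0.54 for Fosl1. Each was negative in all 26 alternatives run. Fosl1 lost its call without the third arrays (limma adjusted p = 0.0861), and Fosl1 (0.0126) and Jun (0.0121) did not pass a threshold of 0.01. The dimmer Jun probe set did pass it in the fit of all probe sets (-1.62, limma adjusted p = 9.72e-05).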

How the results depend on the processing

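Of 32 member changes (8 genes in 4 comparisons), 17 kept direction and call in every alternative run (27, or 26 for the last 2 comparisons). Called subunits numbered 7 or 8 at 8 h and 5 to 8 for the difference of changes, and Fosl1 was the member lost at 8 h. Its limma adjusted p was 0.0986 without the third arrays. At 14 d the count of 0 became 2 (Fosb and Atf3) with the replicate number as a block, shared or within each time, 5 with array weights, whose estimate did not converge, and 1 without the third arrays, and it was 0 to 3 with single arrays left out. Between controls it became 2 with only the compared groups, 2 with array weights and 0 with single arrays left out. Junb reversed with array weights at 14 d (-0.0361) and between controls (-0.0131), and between controls without the third arrays (-0.0200). With single arrays left out, the control difference ran from -0.0145 to 0.159 for Junb and from -0.0193 to 0.124 for Atf3. The cause of these shifts was not tested.

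With the replicate block, the adjusted p at 14 d was 0.0395 for Fosb and 0.00576 for Atf3, and 0.0270 and 0.0109 with the block within each time, which was added after the data were seen. The block changed no other member call. At 14 d same-numbered arrays correlated at 0.164, 0.0684 and 0.463, and KA 14 d replicate 2 correlated better with CTR 14 d replicate 1 (0.349).

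Counts over all genes moved more. At 8 h 2420 genes became 4843 probe sets without collapse and 1352 genes at an adjusted p under 0.01. Its split of 1097 higher and 1323 lower turned to 1402 and 1217 with cyclic loess, 723 and 629 at 0.01, 2452 and 2391 for probe sets, 959 and 826 without KA 8 h replicate 1, and 903 and 756 without CTR 8 h replicate 3. At 14 d 354 became 599 and 576 with the 2 blocks, 2099 with array weights, 551 probe sets, 170 at 0.01 and 196 to 457 with single arrays left out. For the difference, 764 became 1214, 1178, 2168, 1478, 346 and 508 to 902 under these settings. Between controls, 249 became 543 with only the compared groups, 570 with the block, 1336 with array weights, 445 probe sets, 64 at 0.01 and 86 to 421 with single arrays left out. There the split of 155 higher and 94 lower became 188 and 185 with cyclic loess. Low signal limits Junb, whose 14 d and control levels lie near background.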
